A study of Mus musculus with 11 samples.

Results

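The interleukin-1 and TNF pathway genes described here were 10 mouse genes taken by symbol from the 32287 features of the count tables: the cytokines Il1a, Il1b, Tnf and Il18, the receptors Il1r1, Tnfrsf1a and Tnfrsf1b, the receptor accessory chain Il1rap, the receptor antagonist Il1rn and the inflammasome sensor Nlrp3. Each symbol matched 1 feature. Their UMIs were summed per mouse over cells placed in classes by marker genes, so that the cells holding cytokine transcripts and the cells holding receptor transcripts could be described side by side. Levels are given as CPM, in which the UMIs of a gene are scaled to all UMIs of the class in that mouse.

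Interleukin-1α and interleukin-1β both bind the receptor encoded by Il1r1, which signals after Il1rap joins it, and Il1rn encodes a protein that occupies the receptor without signalling. NLRP3 assembles the inflammasome, in which caspase-1 is activated and in turn processes the precursors of interleukin-1β and interleukin-18. TNF acts through a broadly expressed receptor, Tnfrsf1a, and a more restricted one, Tnfrsf1b. In brain vessels these cytokines act on the endothelium through NF-kB, and adhesion molecules, chemokines and prostaglandin synthesis are known outputs.

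By the mm10 annotation, Il1a (ENSMUSG00000027399) lay at chr2:129299610-129309972 on the minus strand, next to Il1b (ENSMUSG00000027398) at chr2:129364570-129371139 on the same strand. Il1rn (ENSMUSG00000026981) was on the same chromosome at chr2:24336853-24351494, plus strand. Tnf (ENSMUSG00000024401) was at chr17:35199381-35202007, minus strand, and Il18 (ENSMUSG00000039217) at chr9:50554827-50581840, plus strand. Of the receptor genes, Il1r1 (ENSMUSG00000026072) was at chr1:40225080-40317257, plus strand, Tnfrsf1a (ENSMUSG00000030341) at chr6:125349362-125362484, plus strand, and Tnfrsf1b (ENSMUSG00000028599) at chr4:145213463-145246870, minus strand. Il1rap (ENSMUSG00000022514) was at chr16:26581704-26730117 and Nlrp3 (ENSMUSG00000032691) at chr11:59541568-59566956, both on the plus strand.

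Cells came from brain microvascular fragments of 11 mice, which were isolated with CD31-antibody magnetic beads and digested again, so the non-endothelial cells were those that came along with the vessels. CADASIL is an inherited small vessel disease of altered NOTCH3. Mice of both groups carried a human NOTCH3 transgene and had received no treatment: R182C-TgN3 mice, the CADASIL model, carried its R182C variant, and WT-TgN3 mice carried the gene without that variant. By the paper's account, the control transgene and the mouse's own Notch3 are made in about equal amounts. There were 6 R182C-TgN3 mice, 3 aged 6 months and 3 aged 9 months, 4 female and 2 male. There were 5 WT-TgN3 mice, 3 aged 6 months and 2 aged 9 months, 3 female and 2 male. The mice were prepared in 4 batches; batches 1 and 2 held all mice of 9 months and batches 3 and 4 all mice of 6 months, so age and batch cannot be told apart.

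The libraries of R182C-TgN3 mice 1 to 6 held 64215050, 42317151, 46672613, 27899969, 17550806 and 45597051 UMIs. Those of WT-TgN3 mice 1 to 5 held 21309847, 43857411, 31933696, 45349507 and 56809906 UMIs. Of 66658 barcodes, 61625 passed the limits on genes and mitochondrial UMIs, 3279 of these were removed as scored doublets, and 58346 cells remained, of which 32306 were R182C-TgN3 and 26040 WT-TgN3.

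Marker genes, none of them an interleukin-1 or TNF pathway gene, placed 13970 cells as microglia (median 4986 UMIs per cell), 154 as perivascular macrophages (4136.5) and 37722 as endothelial cells (4734). Of the endothelial cells, 4712 were arterial (median 6291.5 UMIs), 6974 capillary (3976) and 2610 venous (6669), and 23426 had no clear subtype and were used in the whole class alone. There were 1865 smooth muscle cells (7824) and 528 pericytes (3161). Among blood cells there were 70 monocytes, 697 B cells, 219 T and NK cells and 1 neutrophil, and 1967 cells (3.37%) met no gate. Classes were used per mouse where a mouse had at least 20 cells, which left 10 mice for pericytes; macrophages were used from 10 cells, which left 8 mice.

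Libraries of the mice aged 6 months shared barcodes. R182C-TgN3 mice 4, 5 and 6 shared 446, 397 and 304 barcodes with another library (8.34%, 11.6% and 4.94% of theirs), and WT-TgN3 mice 1, 2 and 3 shared 140, 165 and 442 (3.04%, 2.49% and 6.45%). The shared barcodes in these 6 libraries had medians between 777 and 1914 UMIs, below the medians of their libraries, whereas those in the libraries of mice aged 9 months (1.44% to 2.70%) had medians of 4327 to 5101.5. The pair with the most in common, R182C-TgN3 mice 4 and 5, shared 350. Venous endothelial cells numbered 2124 without the shared barcodes. Every log2 fold change of the 10 genes kept its sign and its side of the threshold without them in the comparisons of genotypes and the contrasts of classes.

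Levels were set side by side in microglia, the 3 endothelial subtypes, smooth muscle cells and pericytes. Among these 6 classes the cytokine genes Il1a, Il1b and Tnf and the sensor gene Nlrp3 were highest in microglia, and Il1r1 in venous endothelial cells, in every mouse. Il1a had 428 ± 97.7 CPM (mean ± SD, n = 11 mice) in microglia, with a lowest value of 229.9, a median of 412 and a highest of 559. In the vascular classes its means were 4.84 CPM in pericytes (n = 10, 0 in 7 mice, and 1.95 without R182C-TgN3 mouse 1), 3.31 in capillary, 2.64 in arterial and 1.25 in venous endothelial cells and 2.11 in smooth muscle cells. The lowest microglial value was far above the highest value in a vascular class, 30.8 CPM in the pericytes of 1 mouse.

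Il1b, the inflammasome-processed cytokine, had 20.3 ± 6.98 CPM in microglia (n = 11, 6.01 to 28.9, 1534 UMIs). The vascular means were 0.880 CPM in pericytes (2 UMIs, 0 in 9 of 10 mice), 0.503 in capillary, 0.360 in venous and 0.211 in arterial endothelial cells and 0.0410 in smooth muscle cells (1 UMI). Tnf had 232 ± 42.3 CPM in microglia (n = 11, 146 to 282) and was next highest in venous endothelial cells at 3.79 ± 2.04 CPM (1.40 to 7.96), with 2.41 in capillary and 1.44 in arterial endothelial cells, 1.21 in pericytes and 0.632 in smooth muscle cells. The pericyte mean of Tnf (4 UMIs, 0 in 8 of 10 mice) was 0.245 CPM without R182C-TgN3 mouse 2. Its smooth muscle mean was 0.418 CPM without WT-TgN3 mouse 2. Il18 had 56.9 ± 4.36 CPM in microglia, and 20.1 ± 3.68 in venous, 15.2 ± 2.82 in arterial and 12.6 ± 1.48 in capillary endothelial cells. It had 8.45 ± 8.92 CPM in pericytes (13 UMIs, 0 in 3 of 10 mice) and 6.47 ± 2.09 in smooth muscle cells.

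Among the receptors, Il1r1, which carries the interleukin-1 signal, had 977 ± 211 CPM in venous endothelial cells (n = 11, 693 to 1299, 28295 UMIs). It had 69.0 ± 18.1 CPM in pericytes, 58.7 ± 16.1 in smooth muscle cells, 31.0 ± 7.82 in capillary and 18.0 ± 6.63 in arterial endothelial cells and 6.13 ± 1.25 in microglia. The lowest venous value was thus far above the highest value in the other classes compared, 102 CPM in pericytes. The whole endothelial class held 68257 Il1r1 UMIs, of which venous, capillary and arterial cells held 28295, 912 and 624. The rest lay in the 23426 endothelial cells without a clear subtype, so the gene was not limited to cells gated as venous. Tnfrsf1a, the widely expressed TNF receptor, had 71.1 ± 8.80 CPM in venous endothelial cells, 64.8 ± 6.29 in microglia, 62.8 ± 15.9 in pericytes, 50.6 ± 5.42 in arterial endothelial cells, 27.7 ± 2.99 in smooth muscle cells and 27.1 ± 3.33 in capillary endothelial cells. Tnfrsf1b, its restricted counterpart, had 82.0 ± 6.97 CPM in microglia, 28.2 ± 4.01 in arterial, 25.1 ± 5.34 in venous and 14.3 ± 3.04 in capillary endothelial cells. In pericytes and smooth muscle cells Tnfrsf1b came to 6 and 19 UMIs in all.

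Il1rap, the chain that joins the bound receptor, had means of 36.4 ± 11.9 CPM in pericytes (66 UMIs), 25.8 ± 6.12 in venous and 21.4 ± 4.47 in capillary endothelial cells, 16.8 ± 2.87 in microglia, 16.3 ± 3.19 in arterial endothelial cells and 8.65 ± 2.84 in smooth muscle cells. The antagonist gene Il1rn was scarce throughout: 1.15 ± 1.04 CPM in microglia (78 UMIs, 0 in 2 of 11 mice) and 1 UMI in venous endothelial cells. No Il1rn UMI was counted in arterial or capillary endothelial cells or smooth muscle cells, where 3 counts would have made 0.0802, 0.0965 and 0.198 CPM of the pooled class. Nlrp3 had 461 ± 124 CPM in microglia (n = 11, 241 to 648) and between 1.44 CPM in venous endothelial cells and 5.32 in pericytes among vascular classes. The pericyte mean of Nlrp3 (12 UMIs, 0 in 5 of 10 mice) was 3.47 CPM without R182C-TgN3 mouse 1.

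**Figure D1:**
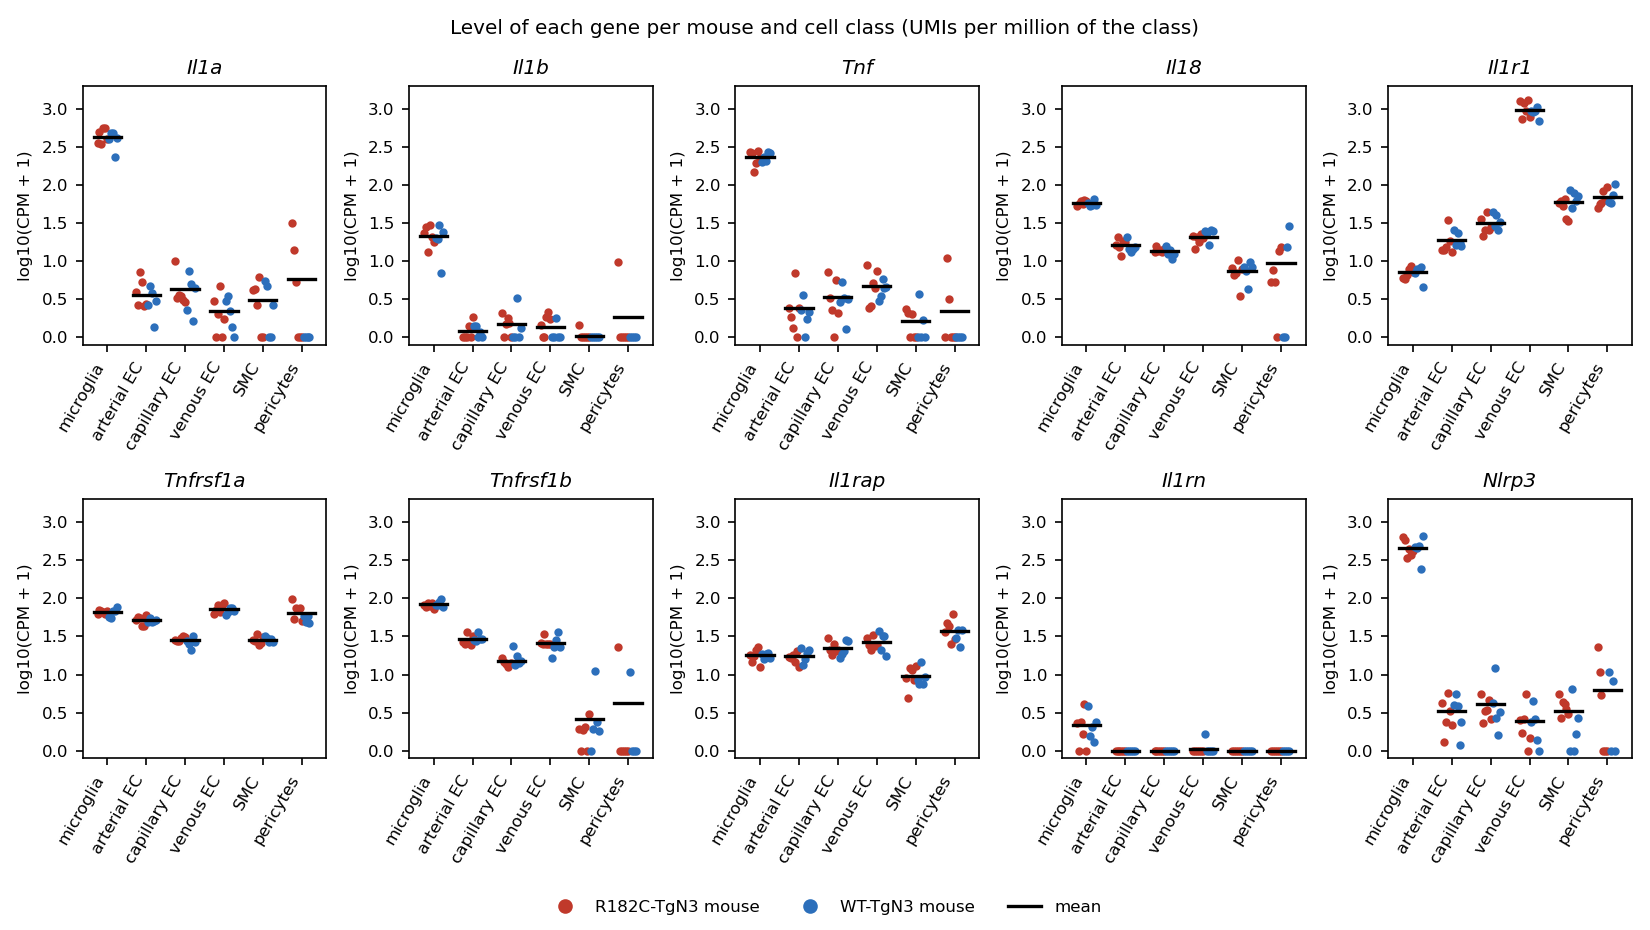
Level of each of the 10 genes in 6 cell classes as log10(CPM + 1), with 1 point per mouse coloured by genotype and a line at the mean. Il1a, Il1b, Tnf and Nlrp3 stand apart in microglia and Il1r1 in venous endothelial cells (693 to 1299 CPM), and the points of both genotypes mix in each class.

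Each gene's classes were put in order of their mean, and neighbours in that order were compared with 2-sided exact sign-flip permutations over the mice they shared. Of 50 such pairs, 18 passed a threshold of 0.05 after the p-values were adjusted over the 50 pairs. The order came from the same mice as the tests. The Il1rn pairs among arterial and capillary endothelial cells, smooth muscle cells and pericytes had 0 UMIs in both classes and could not pass. Microglia were above the next class for Tnf, Il18 and Tnfrsf1b in 11 of 11 mice (exact p = 0.000977 each, the smallest that 11 mice can give), and for Il1a, Il1b and Nlrp3 in 10 of 10 mice with pericytes (exact p = 0.00195, the smallest that 10 mice can give). For Il1rn microglia were above venous endothelial cells in 9 of 11 mice (exact p = 0.00391).

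Il1r1 was higher in venous endothelial cells than in pericytes in 10 of 10 mice (exact p = 0.00195). Below them, pericytes and smooth muscle cells did not differ beyond their spread (exact p = 0.207), and smooth muscle cells, capillary endothelial cells, arterial endothelial cells and microglia then followed, each above the next in 11 of 11 mice (exact p = 0.000977). For Tnfrsf1a no step between neighbours among the first 4 classes passed: venous endothelial cells against microglia gave an exact p of 0.0420, which did not pass after adjustment (0.111), microglia against pericytes 0.877 and pericytes against arterial endothelial cells 0.0762. Arterial endothelial cells were above smooth muscle cells (exact p = 0.000977), which did not differ from capillary endothelial cells (0.658).

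For Tnfrsf1b the arterial and venous endothelial classes were neighbours that did not pass (exact p = 0.0518), venous cells were above capillary cells (0.00195) and capillary cells above pericytes (0.00391). For Il18 the endothelial subtypes ranked venous, arterial, capillary, with both steps passing (exact p = 0.00977 each), and the steps to pericytes and smooth muscle cells did not (0.205 and 0.494). For Il1rap the steps from pericytes to venous and from venous to capillary endothelial cells did not pass (exact p = 0.0918 and 0.0723). No step between vascular neighbours passed for Il1a, Il1b, Tnf or Nlrp3, where the smallest exact p was 0.0664, for Il1a in smooth muscle against venous endothelial cells. Classes that were not neighbours in an order were not compared.

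Macrophages, monocytes and the single neutrophil were few, so their UMIs were pooled over all mice, with an exact 95% Poisson interval that covers counting error alone. In 154 macrophages Tnf came to 352 CPM (309 to 399, 244 UMIs), Nlrp3 to 242.5 (207 to 282) and Il1b to 33.2 (21.0 to 49.8), while Il1a came to 5.77 (1.57 to 14.8, 4 UMIs). In 70 monocytes Il1b came to 356 CPM (305 to 413, 174 UMIs), Tnf to 155 (122 to 195), Nlrp3 to 217 (177 to 262) and Il1a to 4.09 (2 UMIs). The pooled monocyte level of Il1b was above every microglial value of the gene, and that of Il1a below every one. Of the 174 monocyte Il1b UMIs, 133 came from WT-TgN3 mouse 3, which held 37 of the 70 monocytes, 21 from R182C-TgN3 mouse 3 and 14 from R182C-TgN3 mouse 6. Without WT-TgN3 mouse 3 the pooled Il1b level was 139.5 CPM (41 UMIs). A stricter gate kept 18 of the 70 monocytes.

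Il1rn was pooled at 10.1 CPM in macrophages (4.06 to 20.8, 7 UMIs) and 20.5 in monocytes (9.81 to 37.6, 10 UMIs). Of these, 4 UMIs came from R182C-TgN3 mouse 1 and 8 from WT-TgN3 mouse 3, and without those mice the levels were 5.05 and 6.81 CPM. The TNF receptor genes were also present in these cells: Tnfrsf1a at 82.3 CPM in macrophages and 100.2 in monocytes, and Tnfrsf1b at 59.2 and 168. The neutrophil, from R182C-TgN3 mouse 1, held 9614 UMIs with none of Il1b, for which the upper limit of the same interval is 383.7 CPM. Neutrophils therefore gave no comparison as a source of these cytokines.

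To set depth aside, cells were thinned to 2000 UMIs before those with at least 1 UMI of a gene were counted, and shallower cells were left out (1954 of 13970 microglia). Nlrp3 was found in 54.1% of 12016 microglia (6502 cells, 72.6% unthinned), Il1a in 41.5% (4983 cells, 58.4% unthinned) and Tnf in 27.6% (3315 cells, 42.5% unthinned). Il1b was found in 2.60% (313 cells, 4.40% unthinned), with shares from 0.879% to 3.42% between mice. The same counts in 34232 endothelial cells (3490 left out), a class with low levels of these genes, were 0.730% for Nlrp3, 0.844% for Il1a, 0.608% for Tnf and 0.0847% for Il1b (29 cells), at a median of 4734 UMIs per cell against 4986 in microglia. In 668 B cells, with a median of 3745 UMIs, Il1a was found in 1.20%, Il1b in 0.150% and Tnf in 2.25%. Il1b was found in 23 of 69 monocytes (33.3%) and Tnf in 57 of 132 macrophages (43.2%), pooled over mice that gave unequal numbers of cells.

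Il1r1 was found in 1503 of 2055 venous endothelial cells (73.1%, 87.8% unthinned, 555 shallow cells left out), pooled over the mice. It was found in 4.91% of capillary endothelial cells (9.33% unthinned) and 10.2% of smooth muscle cells (31.5% unthinned). Microglia, lowest of the 6 classes for this gene, gave 1.23% and B cells 0.898%, at median depths of 4986 and 3745 UMIs against 6669 in venous cells. Il1r1 was thus a gene of most venous cells, whereas Il1b was found in few microglia at this depth.

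RNA of microglia carried into other droplets was measured with 8 microglial genes that served in no gate, C1qa, C1qb, C1qc, Csf1r, Ctss, Tyrobp, Fcer1g and Laptm5. Without Laptm5, their summed level as a percent of that in the microglia of the same mouse had a median of 0.398% in venous (0.185 to 1.19), 0.753% in capillary (0.441 to 2.99) and 0.686% in arterial endothelial cells, 0.450% in smooth muscle cells and 1.08% in pericytes (0.535 to 4.12). All 8 genes were above 0 in every mouse in the endothelial classes, whereas a gene was at 0 in 1 mouse in smooth muscle cells and in 5 mice in pericytes. The most abundant was Laptm5 in arterial cells of 11 of 11 mice and C1qa in venous cells of 7 of 11. Scaled by that percent, microglial RNA would give 2.18 CPM of Il1a and 2.44 of Nlrp3 in venous endothelial cells, against 1.25 and 1.44 measured. The ratio of measured to scaled level over the vascular classes lay between 0.573 and 0.868 for Il1a and between 0.592 and 0.791 for Nlrp3, so neither was detected above carry-over there. The 0.868 was the pericyte ratio of Il1a, which was 0.426 without R182C-TgN3 mouse 1.

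Tnf in venous endothelial cells came to 3.79 CPM measured against 1.13 from carry-over, above it in 11 of 11 mice (3.35-fold), whereas capillary and arterial endothelial cells gave ratios of 1.05 and 0.874. Genes of the microglial gate gave a higher percent in venous cells, from 1.18% (R182C-TgN3 mouse 2) to 3.53% (WT-TgN3 mouse 2) of the microglial level. Its lowest value was near the highest of the carry-over list in venous cells (1.19%). No level was scaled by the higher percent, and whether Tnf would lie above carry-over by it was not tested. The 3.35-fold and the 11 of 11 mice thus hold for the carry-over list without Laptm5 alone. Il1b, with few UMIs, gave a ratio of 3.24 in venous cells but was above carry-over in 5 of 11 mice. Its ratio was 2.46 in capillary cells (6 of 11), 1.33 in arterial cells (4 of 11), 3.18 in pericytes (1 of 10) and 0.288 in smooth muscle cells. The arterial ratio was 0.859 without R182C-TgN3 mouse 6, and the pericyte ratio was 0 without R182C-TgN3 mouse 1. The receptor genes lay far above carry-over in endothelial cells, from 17.8-fold for Tnfrsf1b in capillary cells to 32742-fold for Il1r1 in venous cells. Il18 lay 10.7-fold to 72.2-fold above it in the vascular classes. The 10.7-fold was that of pericytes (13 UMIs), above carry-over in 7 of 10 mice, and was 7.79-fold without WT-TgN3 mouse 4. In smooth muscle cells and pericytes Tnfrsf1b, at 3.00 and 2.77 times the scaled level, was above it in 7 of 11 and 2 of 10 mice, and the ratios fell to 1.47 without WT-TgN3 mouse 3 and 1.20 without R182C-TgN3 mouse 1.

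Endothelial cells and microglia differed in each of the 9 genes that could be tested, with Il1r1 and Il1rap higher in endothelial cells and the others lower. In the endothelial class as a whole Il1r1 had a lowest, median and highest value of 159.9, 279 and 344 CPM, against 3.63, 6.13 and 7.69 in the microglia of the same mice. No values overlapped, and the log2 fold change was 5.44 (SE 0.0902, edgeR with mouse as a block, adjusted p = 1.2e-18, higher in 11 of 11 mice). Il1rap was higher in endothelial cells by 0.38 (23.0 against 16.8 CPM, 11 of 11 mice).

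The other 7 genes were lower in endothelial cells in 11 of 11 mice: Il1a by -7.37, Nlrp3 by -7.73, Tnf by -6.48 and Il1b by -6.13, and less so Tnfrsf1b (-2.02), Il18 (-1.98) and Tnfrsf1a (-0.62). Il1rn was not tested, since its counts were below the filter. The 9 of 9 genes called stood against 87.6% of the 12412 genes tested (47.1% higher, 40.4% lower in endothelial cells), so a call alone set none of them apart. Without the shared barcodes Il1r1 gave 5.42 and Il1a -7.37.

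Of 9 inflammasome genes tested, 9 were lower in endothelial cells and 0 higher (median -3.11, all genes 0.09): the inflammasome-forming genes Nlrp1b (-7.15), Aim2 (-3.71) and the protease gene Casp1 (-3.76) were the lowest. Of 15 NF-kB genes, 13 were lower and 1, Bcl3 (0.53), was higher, with a median of -1.48; Rel fell by 4.16 and the feedback inhibitor gene Tnfaip3 by 3.40. Of 11 adaptor and kinase genes 3 were higher and 7 lower (median -0.51), with Irak3, which restrains the pathway, at 1.34.

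Of 19 genes of the TNF receptor complex, 5 were higher and 10 lower (median -0.57), with the necroptosis effector gene Mlkl at 4.08 and Traf3 at -2.16. Among 5 other interleukin-1 and interleukin-18 receptor and decoy genes, 2 were higher, Sigirr (6.55) and Il18bp (1.61), and 3 lower, Il1rl1 (-5.37) and the decoy receptor gene Il1r2 (-3.21) among them. Of 14 cytokine target genes 4 were higher and 8 lower (median -0.74), with Lcn2 at 7.76, Cxcl1 at 6.27 and Vcam1 at 4.48 above and Ccl3 at -7.45 below. The 15 dissociation stress genes were lower in 11 and higher in 0 (median -0.81), and their part in these differences was not tested.

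Perivascular macrophages, compared with microglia in the 8 mice that had both, held Tnf transcripts, fewer of Nlrp3 and almost none of Il1a. Il1a had a lowest, median and highest value of 0, 0 and 33.0 CPM in macrophages (4 UMIs in all) and 229.9, 408 and 489.5 in microglia. The values did not overlap, and the log2 fold change was -5.93 (SE 0.377, edgeR, adjusted p = 1.5e-53, lower in 8 of 8 mice). Nlrp3 had 77.4, 256 and 462 CPM in macrophages and 241, 468 and 648 in microglia. These overlapped, with 1 mouse higher in macrophages, and the log2 fold change was -0.98 (SE 0.186, adjusted p = 1.7e-06).

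Tnf had 128, 350.5 and 743 CPM in macrophages and 146, 246 and 273 in microglia, with 5 of 8 mice higher in macrophages. Its log2 fold change of 0.46 (SE 0.180, edgeR) had an adjusted p of 0.0395. That call was lost with DESeq2 (0.57, adjusted p = 0.144) and with no filter on low counts (0.32, 0.281), turned direction with a stricter gate (-0.08, 0.892), and was lost without R182C-TgN3 mouse 1 (0.43), 3 (0.19) or 6 (0.45), or without WT-TgN3 mouse 2 (0.44) or 3 (0.45). Over all 13 alternatives the adjusted p ran from 0.00438 to 0.892.

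Il1rap was lower in macrophages (2 UMIs in all, 15.6 CPM in microglia; log2 fold change -2.28, SE 0.857, edgeR adjusted p = 0.0300, 7 of 8 mice). The call was lost with DESeq2 (-1.79), with scored doublets kept (-1.77), with a stricter gate (-2.42) and without R182C-TgN3 mouse 1 (-2.02), 3 (-2.09) or 6 (-2.18) or WT-TgN3 mouse 2 (-2.04), 4 (-1.97) or 5 (-2.14), and its adjusted p ran from 0.0162 to 0.178. The other 4 genes tested were not called: Il1b 0.02, Tnfrsf1a 0.33, Tnfrsf1b -0.45 and Il18 -0.40. Il1b turned to -1.35 with a stricter gate, -0.12 with no filter on low counts and -0.00959 with scored doublets kept, also not called. The 4 of 8 genes called, 1 higher and 3 lower, stood against 28.6% of 8975 genes (9.38% higher, 19.2% lower), and Il1r1 and Il1rn were not tested.

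Around them, NF-kB genes were lower in macrophages in 9 of 15 and higher in 0 (median -1.03, all genes -0.20), with Tnfaip3 at -2.06 and Nfkb1 at -1.95. Inflammasome genes moved in both directions, 3 higher and 5 lower of 10 (median -0.67): the sensor gene Nlrc4 (6.01), the ATP-gated channel gene P2rx7 (3.64) and Casp1 (0.91, a call lost in 3 alternatives) were higher and Nlrp1b (-2.08) was lower. Of 12 cytokine targets 3 were higher, the chemokine genes Cxcl2 (3.77) and Ccl2 (1.06) and the adhesion gene Vcam1 (3.66), and 6 lower, Csf1 (-4.51) and Icam1 (-3.10) among them, with a median of -0.61.

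Adaptors and kinases were lower in 4 of 11 and higher in 0 (median -0.50; Irak2 -1.29), and genes of the TNF receptor complex lower in 6 of 16 and higher in 0 (median -0.55; Birc3 -1.51). Stress genes were higher in 3 and lower in 8 of 15 (median -0.50; Hspa1b 2.08), and microglial carry-over genes lower in 3 of 8. None of the interleukin-1 and interleukin-18 receptor and decoy genes could be tested.

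Venous endothelial cells carried more transcripts of the 3 receptors and Il18 than capillary endothelial cells of the same mice, while the call of Il1rap depended on the tool and on single mice. Il1r1 had 693, 929 and 1299 CPM (lowest, median and highest of 11 mice) in venous cells and 20.6, 27.7 and 42.9 in capillary cells. In each mouse the venous value was many times the capillary one, with no overlap. The log2 fold change was 5.02 (SE 0.0919, 32.4-fold, edgeR with mouse as a block, adjusted p = 9.3e-25, higher in 11 of 11 mice), and 4.97 without the shared barcodes.

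Tnfrsf1a had 59.3, 69.4 and 85.3 CPM in venous cells and 19.9, 26.4 and 31.0 in capillary cells, again without overlap. Its log2 fold change was 1.40 (SE 0.0646, 11 of 11 mice). Tnfrsf1b differed by 0.87 (SE 0.117, 25.1 against 14.3 CPM, 10 of 11 mice) and Il18 by 0.69 (SE 0.111, 20.1 against 12.6 CPM, 10 of 11 mice), and values of both overlapped between the classes.

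Il1rap had 16.4, 23.4 and 35.7 CPM in venous cells and 15.3, 20.1 and 28.9 in capillary cells, a difference of 0.26 (SE 0.0989, edgeR adjusted p = 0.0256, 10 of 11 mice). This call was lost with DESeq2 (0.27, adjusted p = 0.0570) and without WT-TgN3 mouse 1 (0.19, 0.0705) or 3 (0.22, 0.0679) and ran from 0.0102 to 0.0705 over 16 alternatives. The 5 of 5 genes tested were called and higher, against 28.1% of 10057 genes higher, 28.4% lower and 56.5% called in either direction. Il1a, Il1b, Tnf, Il1rn and Nlrp3 had too few counts to be tested in these subtypes.

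Downstream genes differed in the same contrast. Of 15 NF-kB genes 12 were higher in venous cells and 1 lower, with a median log2 fold change of 0.99 beside -0.01 for all genes: Nfkbiz (2.09), Bcl3 (1.95) and Nfkbie (1.63) were highest, each encoding a protein of the IκB family, and the kinase gene Chuk (-0.27) was lower. Of 12 cytokine targets 9 were higher and 3 lower (median 3.64). Lcn2, an acute-phase gene, had 448 CPM in venous and 1.01 in capillary cells (8.19), Vcam1, which binds leukocytes, 705 and 5.28 (7.19), and Ptgs2, which makes prostaglandins, 384 and 6.18 (5.92). The 3 lower genes were the chemokine genes Ccl4 (-1.21), Ccl3 (-1.08) and Ccl2 (-1.08).

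Of 11 adaptor and kinase genes 4 were higher and 2 lower (median 0.11), with the adaptor gene Myd88 and the restraining Irak3 at 1.35 each and Traf6 at -0.39. Of 18 genes of the TNF receptor complex 7 were higher and 4 lower (median 0.11), with Traf1 (2.30), Birc3 (1.51) and Ripk1 (1.18) above and the TNF-shedding protease gene Adam17 (-0.31) below. Of 7 inflammasome genes 2 were higher and 1 lower (median -0.14), with Casp4 at 3.64, Nek7 at 0.34 and Txnip at -0.27. Il18bp, which neutralises interleukin-18, was higher (0.72) and Sigirr lower (-0.35).

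The dissociation stress list also differed between these classes, higher in 14 genes and lower in 1 of 15 (median 0.62; Egr1 1.61). Its summed level had a lowest, median and highest value of 14776, 22708 and 27703 CPM in venous cells of R182C-TgN3 mice, and 7905, 12391 and 15026 in their capillary cells. In WT-TgN3 mice the values were 15634, 18047 and 25793 in venous and 8667, 10709 and 16523 in capillary cells, with Jun the most abundant gene and none at 0 in either. Its part in the NF-kB and cytokine target differences was not tested. The microglial carry-over list was lower in venous cells in 8 of 8 genes (median -1.02).

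**Figure D2:**
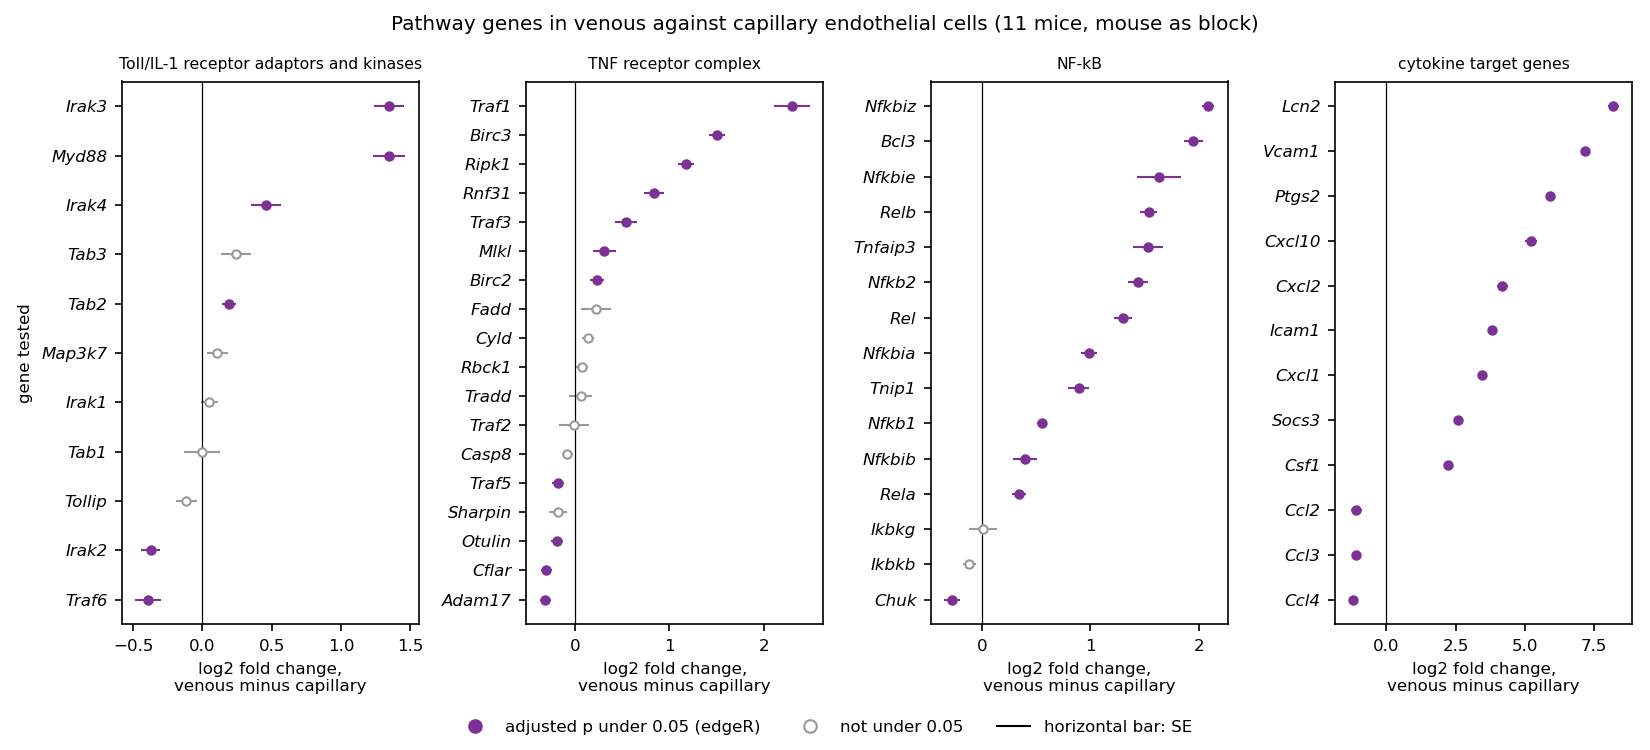
Log2 fold change of venous minus capillary endothelial cells, with its SE as a horizontal bar, for each tested gene of 4 lists; filled points passed an adjusted p of 0.05 in edgeR (11 mice). NF-kB genes lie mostly right of 0 (12 of 15 higher) and cytokine targets reach 8.19 for Lcn2, while adaptors and TNF receptor complex genes lie on both sides.

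Arterial endothelial cells had more of the TNF receptor genes and less of the interleukin-1 receptor chains than capillary cells. Tnfrsf1a had 42.3, 50.6 and 59.7 CPM in arterial cells and 19.9, 26.4 and 31.0 in capillary cells, with no overlap and a log2 fold change of 0.92 (SE 0.0652, edgeR, 11 of 11 mice). Tnfrsf1b had 23.5, 27.6 and 35.5 CPM against 11.5, 13.3 and 22.4, also with no overlap, and a log2 fold change of 1.01 (SE 0.0871, 11 of 11 mice). Il1r1 went the other way, with 12.3, 15.3 and 33.9 CPM in arterial and 20.6, 27.7 and 42.9 in capillary cells (log2 fold change -0.86, SE 0.0878, lower in 11 of 11 mice).

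Il1rap was lower in arterial cells by -0.45 (SE 0.0980, 16.3 against 21.4 CPM) and Il18 higher by 0.28 (SE 0.0899, edgeR adjusted p = 0.00903, 9 of 11 mice), a call that was lost with DESeq2 (0.28, adjusted p = 0.0983, against 0.00399 to 0.0983 over 16 alternatives). All 5 genes tested were called, 3 higher and 2 lower, against 56.4% of 10272 genes (27.1% higher, 29.4% lower), and without the shared barcodes they gave log2 fold changes from -0.87 for Il1r1 to 1.00 for Tnfrsf1b.

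Cytokine targets were higher in arterial cells in 7 of 10 genes and lower in 3 (median 0.61, all genes -0.02), with Vcam1 at 5.85, Tnfaip2 at 4.88 and Ptgs2 at 2.56. NF-kB genes were higher in 7 and lower in 2 of 14 (median 0.11; Nfkbiz 1.23, Bcl3 1.02), TNF receptor complex genes in 8 and 1 of 18 (0.17; Traf1 1.85), adaptors in 4 and 1 of 11 (-0.04), and inflammasome genes in 4 and 1 of 7 (0.21; Casp4 1.95). Both tested genes of the interleukin-1 and interleukin-18 receptor list were higher, Il18bp (0.64) and Sigirr (0.40). The stress list was higher in 13 of 15 genes and lower in 0 (median 0.49), and the carry-over list lower in 7 of 8, with Laptm5 higher at 2.59; their part was not tested.

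Mural cells differed in the TNF receptor and not, beyond their spread, in the interleukin-1 receptor. In the 10 mice with both classes, Tnfrsf1a had 23.1, 27.7 and 33.1 CPM in smooth muscle cells and 46.6, 58.0 and 96.8 in pericytes. Smooth muscle cells were lower in 10 of 10 mice with no overlap, and the log2 fold change was -0.90 (SE 0.178, edgeR adjusted p = 5.2e-05), or -0.91 without the shared barcodes. Il1r1 had 33.1, 58.7 and 84.5 CPM in smooth muscle cells and 48.4, 60.3 and 102 in pericytes, and was not called (0.06, SE 0.173, 95% interval -0.28 to 0.40). The sign of that value was opposite to that of the mean levels (57.6 against 69.0 CPM), and 4 of 10 mice were higher in smooth muscle cells.

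These 2 genes were the ones with enough counts, and 1 of them was called, against 57.0% of 5722 genes (29.1% higher, 27.9% lower). Il1rap, which was not tested, had 21.6 to 62.2 CPM in pericytes and 3.86 to 13.6 in smooth muscle cells, without overlap in the 10 mice used. The pericyte values rested on 66 UMIs in all, 2 to 19 per mouse, and the 62.2 CPM on 5 UMIs. The pericytes of WT-TgN3 mouse 5, too few to be used, had 0 CPM of Il1rap. NF-kB genes were higher in smooth muscle cells in 4 and lower in 1 of 8 (median 0.66, all genes -0.01), with Nfkbiz at 3.96, Nfkbia at 0.94 and Relb at 0.92 above and Nfkb1 at -0.45 below. Of 2 cytokine targets tested Socs3 was higher (4.33) and Ccl4 lower (-0.84).

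Adaptors were higher in 2 and lower in 1 of 6 (median -0.30; Irak2 1.10), TNF receptor complex genes higher in 2 and lower in 0 of 8 (0.12; Ripk1 1.70), and inflammasome genes higher in 1 and lower in 0 of 2 (Txnip 0.80). The stress list was higher in 14 of 15 genes (median 2.87; Atf3 4.27, Fos 4.06). Its summed level in smooth muscle cells had a median of 24076 CPM (R182C-TgN3) and 27024 CPM (WT-TgN3), against 2606 and 4246 in pericytes, and its part in these differences was not tested. Carry-over genes were lower in 3 of 3 tested.

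The comparison of genotypes asked whether the disease variant went with other levels of these genes in the cells that make or receive the cytokines. None of the 10 genes was called between genotypes in a class where it could be tested, under any setting that was run. Microglia, the main source of the cytokine transcripts, had Il1a at 343, 447 and 559 CPM (lowest, median, highest) in R182C-TgN3 mice and at 405, 478, 481, 229.9 and 412 in WT-TgN3 mice 1 to 5. WT-TgN3 mouse 4 was the lowest and the other mice of both genotypes overlapped. The log2 fold change was 0.18 (SE 0.185, 95% interval -0.18 to 0.55, edgeR).

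Il1b had 12.3, 21.2 and 28.9 CPM in R182C-TgN3 microglia and 19.0, 18.6, 28.9, 6.01 and 23.0 in WT-TgN3 mice. The highest values of both groups were alike and WT-TgN3 mouse 4 was again lowest. The log2 fold change was 0.12 (SE 0.271, 95% interval -0.41 to 0.65), and it turned to -0.09 without WT-TgN3 mouse 4.

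Tnf had 146, 240.7 and 282 CPM in R182C-TgN3 microglia and 200.1, 233.6, 206, 268.6 and 265.8 in WT-TgN3 mice. Both the lowest and the highest mouse were R182C-TgN3, and the WT-TgN3 values lay between them. The log2 fold change was -0.00 (SE 0.156, 95% interval -0.31 to 0.31), and it turned to 0.11 with batch as a covariate. Nlrp3 had 333.5, 428.8 and 634 CPM against 475, 451, 484, 241 and 648, with a log2 fold change of 0.03 (SE 0.219), which turned to -0.14 without WT-TgN3 mouse 4.

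For the receptor genes in microglia the log2 fold changes were 0.05 for Tnfrsf1a, -0.04 for Tnfrsf1b and -0.00 for Il1r1, with 0.03 for Il1rap and 0.08 for Il18, and those nearest 0 changed sign without 1 or another mouse. Il1rn, between 0 and 3.08 CPM, was below the filter. In microglia 0 of 9 genes tested were called by edgeR, beside 0.0% of 10947 genes, with 128 genes at an unadjusted p under 0.05 and 0 genes called by DESeq2.

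The share of microglia with a UMI, which separates few cells with many UMIs from many cells with few, also gave no difference past the threshold. After thinning, 1147 R182C-TgN3 cells (14.9%) and 807 WT-TgN3 cells (12.9%) were left out as too shallow. Il1a was found in 36.3%, 44.2% and 50.1% of microglia of R182C-TgN3 mice (lowest, median, highest) and in 42.6%, 43.4%, 48.5%, 26.4% and 38.9% in WT-TgN3 mice 1 to 5, and the R182C-TgN3 mean was 3.07 points higher (2-sided exact permutation p = 0.513 over 462 splits), or -0.332 points without WT-TgN3 mouse 4.

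Il1b was found in 2.03%, 2.38% and 3.42% against 2.41%, 2.19%, 3.03%, 0.879% and 2.95%, a difference of 0.260 points (exact p = 0.584). Tnf was found in 19.3%, 27.6% and 34.6% against 26.7%, 26.4%, 27.2%, 32.1% and 30.1%, a difference of -0.777 points (exact p = 0.786). The groups overlapped for each gene. Permuting within batches alone (72 splits) gave exact p-values of 0.472, 0.639 and 0.653, and unthinned the mean shares were 61.7% and 56.7% for Il1a, 4.52% and 3.91% for Il1b, and 45.1% and 42.2% for Tnf.

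**Figure D3:**
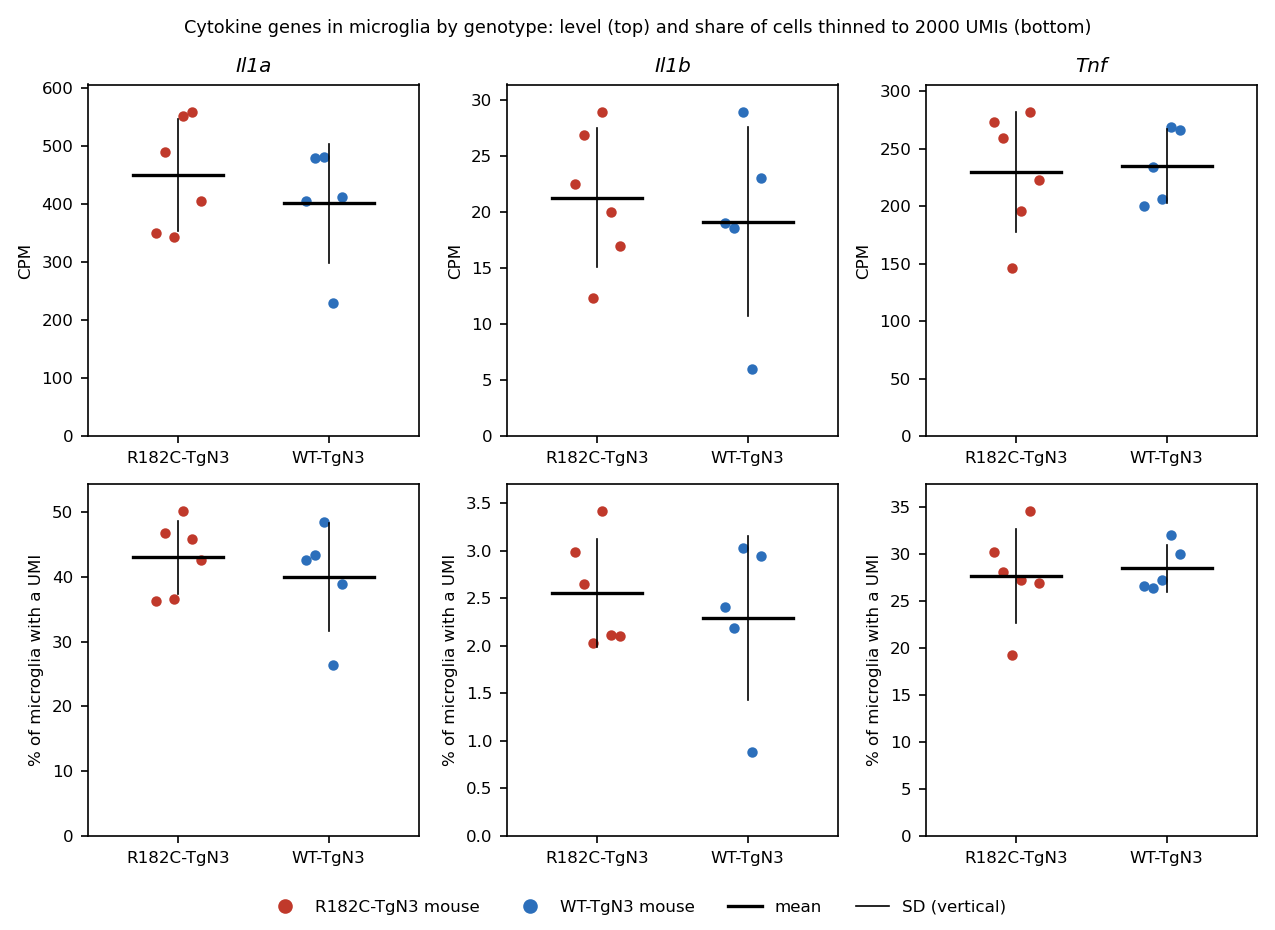
Il1a, Il1b and Tnf in microglia by genotype, as CPM (top) and as percent of microglia with a UMI after thinning to 2000 UMIs (bottom), with 1 point per mouse and lines at the mean and SD. The genotypes overlap in each panel, and WT-TgN3 mouse 4 is lowest for Il1a (229.9 CPM) and Il1b (6.01 CPM).

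In the target cells, venous Il1r1 had 726, 1056 and 1299 CPM in R182C-TgN3 mice and 929, 919, 949.9, 1066 and 693 in WT-TgN3 mice 1 to 5. R182C-TgN3 mice 1, 3 and 5 lay above every WT-TgN3 value, and the other 3 lay among them. The log2 fold change was 0.21 (SE 0.160, 95% interval -0.10 to 0.52, edgeR). Smooth muscle Il1r1 had 33.1, 54.7 and 65.1 CPM in R182C-TgN3 mice and 84.5, 49.0, 77.9, 61.5 and 70.2 in WT-TgN3 mice. The upper WT-TgN3 values lay above the R182C-TgN3 values and the lower ones among them, and the difference of -0.30 (SE 0.160, 95% interval -0.61 to 0.01) was not called. In pairs of mice of the same age, batch and replicate number it was lower with R182C in 5 of 5. With pairs as a block the log2 fold change of Il1r1 in smooth muscle cells was -0.38, also not called. The count depends on the pairing by replicate number. R182C-TgN3 mouse 4 (65.1 CPM) lay above WT-TgN3 mouse 2 (49.0 CPM) of the same age and batch. Only the pair of R182C-TgN3 mouse 6 and WT-TgN3 mouse 3 was of the same sex. Across genes, paired mice correlated little in smooth muscle cells (median r = 0.0759, 1 of 5 pairs over 0.1). Of 36 results of genes between genotypes, 2 had all pairs in 1 direction, the other being Tnfrsf1b in arterial endothelial cells (lower in 5 of 5).

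Of the other genes in venous cells, Il1rap differed by -0.08, Tnfrsf1a by 0.16, Tnfrsf1b by 0.11 and Il18 by -0.17, none called. In capillary cells the 5 tested genes had log2 fold changes from -0.14 (Il1r1, Tnfrsf1b) to 0.19 (Tnfrsf1a, Il18), and in arterial cells from -0.13 (Il1rap) to 0.14 (Il18). In the endothelial class as a whole 8 genes were tested, with log2 fold changes from -0.23 for Nlrp3 to 0.43 for Tnf. That of Nlrp3 turned to 0.17 with batch as a covariate and to 0.12 with pairs as a block. Capillary Il1r1 turned to 0.17 with a stricter gate. In smooth muscle cells Tnfrsf1a, the other gene tested there, differed by 0.02, and no gene of the 10 passed the filter in pericytes.

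In macrophages of 4 R182C-TgN3 and 4 WT-TgN3 mice, Nlrp3 had 159, 347 and 462 CPM against 77.4, 167 and 371 (lowest, median and highest). The groups overlapped, and the log2 fold change of 0.88 (SE 0.403) had an unadjusted p of 0.0398 and an adjusted p of 0.998 in edgeR, so it was not called. Tnf, the only other gene tested there, differed by 0.39, and by -0.04 without R182C-TgN3 mouse 3. Il18, which was not tested, had 10.7 to 39.8 CPM in macrophages of R182C-TgN3 mice (8 UMIs in all) and 40.3 to 87.1 CPM in those of WT-TgN3 mice (19 UMIs), without overlap. With the 3 mice of fewer than 10 macrophages included (50.3 and 125 CPM in R182C-TgN3 mice 4 and 5, 0 in WT-TgN3 mouse 1) the genotypes overlapped. The dissociation stress list was positive in 14 of 15 genes in this comparison (median 0.31), and its part was not tested.

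The counts of called genes by edgeR were 0 of 2 in macrophages, 0 of 8 in endothelial cells, 0 of 5 each in arterial, capillary and venous cells and 0 of 2 in smooth muscle cells. Beside these, the background was 0.0% of genes in macrophages (1173 tested, 45 with an unadjusted p under 0.05), endothelial cells (13051 tested, 1.39% with an unadjusted p under 0.05), and arterial, capillary and venous cells (10394, 10265 and 10087 tested, 159, 275 and 274 with an unadjusted p under 0.05), and DESeq2 also called 0 genes in each. In smooth muscle cells 0.0119% of 8396 genes and in pericytes 0.0393% of 2542 genes were called, which was 1 gene each by either tool (246 and 133 genes with an unadjusted p under 0.05).

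That gene, named after its values were seen, was the human NOTCH3 transgene. It had 159.6, 204.7 and 312 CPM in smooth muscle cells of R182C-TgN3 mice and 11.9, 35.5 and 58.7 in those of WT-TgN3 mice (log2 fold change 2.45, SE 0.274, edgeR adjusted p = 1.1e-04), without overlap. In pericytes it had 671, 1294 and 1666 against 389, 449.7 and 576 (1.42, SE 0.204). The genotypes thus differed in transgene transcript level as well as in the variant.

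No gene of the pathway lists was called between genotypes in a class tested. In microglia, 6 of 15 NF-kB genes had a positive log2 fold change (median -0.00, all genes 0.01) and 9 of 12 cytokine targets (median 0.16). In endothelial cells 11 of 15 NF-kB genes (median 0.03, all genes 0.01) and 13 of 15 cytokine targets (0.30) were positive and uncalled, and in venous cells 11 of 15 (0.07) and 12 of 13 (0.34).

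The microglial carry-over list was positive in 8 of 8 genes in each vascular class tested, with medians of 0.54 in endothelial, 0.63 in arterial, 0.72 in capillary and 0.75 in venous cells and 0.75 in smooth muscle cells, against 0.14 in microglia. Its summed level in venous cells was 36.5, 92.8 and 223 CPM in R182C-TgN3 mice (lowest, median, highest) and 40.6, 74.8 and 133 in WT-TgN3 mice, and in endothelial cells 71.9, 163 and 353 against 90.4, 151 and 187. In endothelial cells R182C-TgN3 mice 1 and 4 stood apart at 353 and 339 CPM. The other R182C-TgN3 mice had 71.9 to 185 CPM there, none above the highest WT-TgN3 value. The stress list was positive in 15 of 15 genes in endothelial, capillary and venous cells (medians 0.14, 0.14 and 0.23) and in 1 of 15 in smooth muscle cells (-0.14). The part of both lists in the uncalled differences of Tnf and the cytokine targets was not tested.

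Whether the genotype difference changed with age was tested as an interaction in microglia and endothelial cells, with age and batch confounded. By edgeR 0 of 9 and 0 of 8 of the genes tested were called, beside 0.0% of genes in both, with 245 and 202 genes at an unadjusted p under 0.05 and 1 and 2 genes called by DESeq2.

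Because isolation stress can raise immediate early and cytokine genes, Il1b and Tnf in microglia were set against the summed level of 15 dissociation stress genes over the 11 mice, which ran from 21308 CPM in R182C-TgN3 mouse 5 to 40029 in WT-TgN3 mouse 5. These 2 relations were tested, and p-values adjusted over both are given beside the raw ones. Il1b gave Pearson r = 0.476 (permutation p = 0.137, adjusted 0.275) and Spearman rho = 0.564 (permutation p = 0.0776, adjusted 0.155). Without WT-TgN3 mouse 5 and R182C-TgN3 mouse 1, the mice farthest from the median of the list, r was 0.518.

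After centring within batches, r for Il1b was 0.781 (permutation p = 0.00623, adjusted 0.012), but 0.352 without WT-TgN3 mouse 4 (adjusted permutation p = 0.318). Tnf gave r = 0.226 (permutation p = 0.505) and rho = 0.0273 (permutation p = 0.946), with r = -0.140 without WT-TgN3 mouse 5 and R182C-TgN3 mouse 1 and -0.419 after centring (permutation p = 0.188), or -0.746 without WT-TgN3 mouse 4 (adjusted permutation p = 0.0185). Within batches 1 and 3, of 4 mice each, r was 0.876 and 0.682 for Il1b and -0.0868 and -0.943 for Tnf, and batches 2 and 4 held 1 and 2 mice, too few for a value. Without WT-TgN3 mouse 4 the values of batch 1 turned to -0.720 for Il1b and 0.364 for Tnf. Neither relation passed the threshold before centring, and which of them passed after it depended on that 1 mouse. The permutations after centring moved centred values freely between batches, so their p-values do not allow for the centring and can be too small.

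**Figure D4:**
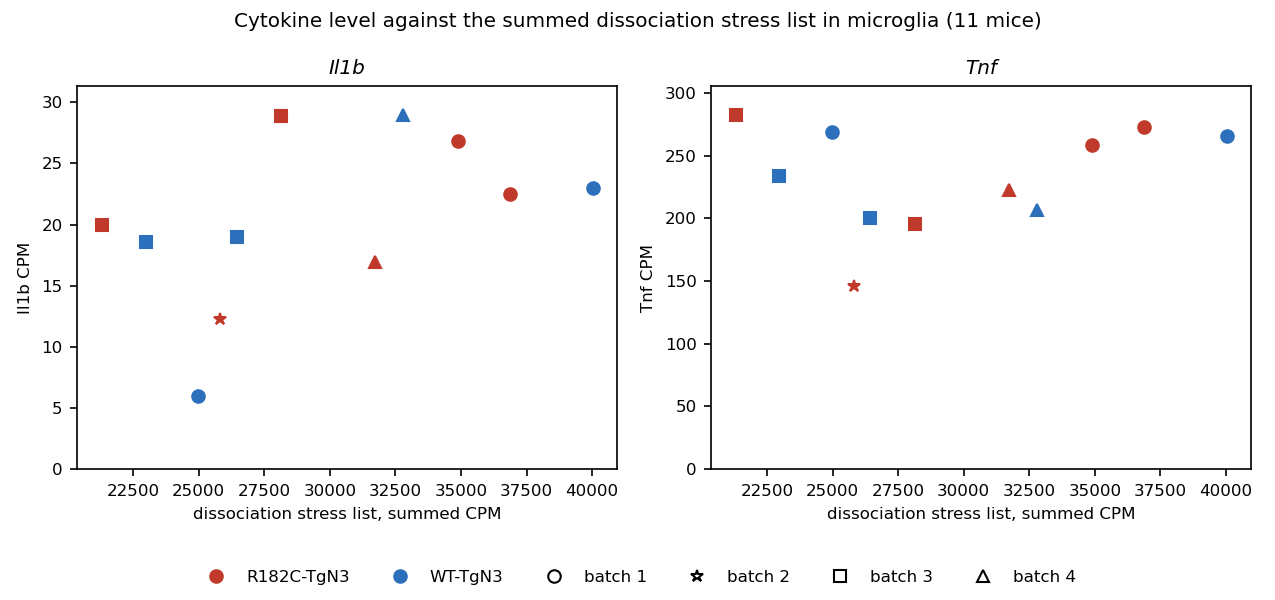
Il1b (left) and Tnf (right) in microglia in CPM against the summed CPM of 15 dissociation stress genes, with 1 point per mouse, coloured by genotype and shaped by batch. Pearson r was 0.476 for Il1b and 0.226 for Tnf over the 11 mice.

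Microglia with an Il1b UMI were described by what else they held, with no test, since cells of a mouse share its library. In the 313 such cells after thinning, Tnf was found in 36.4 ± 10.5% (mean ± SD of 11 mice) against 27.9 ± 3.92% of the other microglia, higher in 9 of 11 mice. Il1a was found in 53.6 ± 20.6% against 41.3 ± 6.63%, also higher in 9 of 11, and Nlrp3 in 57.2 ± 12.8% against 51.7 ± 9.05%, higher in 7 of 11. The receptor gene Tnfrsf1b was found in 11.8% against 14.8%, higher in 6 of 11 mice. The mouse with the fewest had 4 such cells.

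The genes with the most similar pattern to each of the 10 were found by Pearson r of log2(CPM + 1) over 65 class sums of 6 classes, among 9084 genes (9085 for Il1rn), as a description. For the genes highest in microglia these were Havcr2 (0.972), Tlr7 (0.964) and Lair1 (0.963) for Il1a; Adcy8 (0.963), Ms4a6d (0.957) and Sash3 (0.954) for Il1b; Adcy7 (0.951), Tlr7 (0.949) and Alox5 (0.946) for Tnf. Nlrp3 was closest to Tlr7 (0.966), Lair1 (0.962) and Tbxas1 (0.959), and Tnfrsf1b to Naip5 (0.925), Sdcbp (0.925) and Tm6sf1 (0.921).

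Il1r1 was closest to Ptprd (0.915), Nckap5 (0.883) and Ndufa8 (0.881). Il18 was closest to Zbtb18 (0.916), Nhlrc3 (0.888) and Eif5 (0.867), and Il1rap to Nedd4l (0.859), Eps8 (0.859) and Cbfa2t3 (0.849). Il1rn, with few UMIs, gave Ckap2l (0.808), Ccl7 (0.802) and Olfr111 (0.789).

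Il1a and Il1b lie side by side on chromosome 2 and shared their place in microglia, so the RefSeq windows around their starts (250 bases before to 50 after, GRCm38.p6) are printed to show both. All 10 genes matched, with 14 windows. Il1a is at chr2:129309923-129310222 and Il1b at chr2:129371090-129371389, both on the minus strand; capitals mark a match to TGACTCA, the letters of an AP-1 motif.
Il1a: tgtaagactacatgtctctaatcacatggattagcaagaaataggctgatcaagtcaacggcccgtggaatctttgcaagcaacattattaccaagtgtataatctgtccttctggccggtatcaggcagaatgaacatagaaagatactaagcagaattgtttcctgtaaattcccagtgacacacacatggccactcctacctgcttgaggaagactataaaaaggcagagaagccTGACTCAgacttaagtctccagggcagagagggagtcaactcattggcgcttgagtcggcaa
Il1b: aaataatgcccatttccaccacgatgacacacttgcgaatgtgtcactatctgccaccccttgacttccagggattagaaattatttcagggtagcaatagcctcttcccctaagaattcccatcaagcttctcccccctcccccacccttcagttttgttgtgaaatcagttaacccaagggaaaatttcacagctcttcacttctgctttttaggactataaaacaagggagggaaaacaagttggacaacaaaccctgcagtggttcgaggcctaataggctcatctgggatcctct

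A set of 8 strings was searched on both strands of the 14 windows and of 32851 promoter windows of the same length in all. TGANTCA was in 7.81% of all windows and TGACTCA, which it includes, in 5.20%, and both were in 2 of the 14: the Il1a window and the Il1rn window at chr2:24336610-24336909, plus strand. Of the 8, 3 were forms of an NF-kB motif, found in 0.411%, 1.47% and 0.399% of all windows and in 0 of the 14. So were the PU.1 strings GAGGAAGT (3.20%), GAGGAANT (7.44%), which includes it, and AGAGGAAGT (1.00%), which contains it. A match describes letters in a window and not a bound site, and no match says only that the letters are not in it.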

How the data were processed

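The deposited files held raw UMI counts per gene and called barcode for 11 mice, 1 library each, which the authors had made, by their processing notes, with Cell Ranger 7.0.0 on the mm10 transcriptome with human NOTCH3 added. The genes and lists were chosen with earlier results of these data known. Barcodes with fewer than 500 genes or a mitochondrial share over 10% of UMIs were dropped, and doublets were scored per library and removed at 0.8% per 1000 barcodes.

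A cell took a class when it had UMIs of at least 3 markers and 30% of that class's markers, and no other class reached 50% of that share (80% between myeloid classes). An endothelial subtype needed a share of its markers 3 times that of the others. These limits, the minimum of 10 macrophages in place of 20 cells, and the alternative without shared barcodes were set after the cells had been seen.

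Counts were summed per class and mouse. They were tested 2-sided with edgeR 4.0.16 (quasi-likelihood, TMM, its filter on low counts, Benjamini-Hochberg over all genes tested, threshold 0.05) on R 4.3.3, with mouse as a block in contrasts of classes, and with DESeq2 1.42.0 as an alternative. Correlations within mouse pairs were Pearson r across genes of log CPM from edgeR, centred within genotype, and limma 3.58.1 was loaded beside it. The tests did not use genes of the ribosome or mitochondrial genome, or those with Gm or Rik names. Shares of cells and neighbouring levels were compared with exact permutations, and correlations with 100000 permutations. The fits were tested on simulated data.

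The named genes were the 10 members, list genes past the threshold between genotypes, the 3 most changed in each direction per list in contrasts of classes, and the 3 most alike in pattern among genes with at least 20 CPM in a class. Those most alike to Tnfrsf1a are not reported here. The lists were interleukin-1 and interleukin-18 receptors and decoys, inflammasome, Toll and interleukin-1 receptor adaptors and kinases, TNF receptor complex, NF-kB, cytokine targets, dissociation stress and microglial carry-over. Alternatives were DESeq2, no filter, batch or sex as a covariate, a replicate block, doublets kept, a stricter gate (60%, 5 times), no thinning or thinning to 1000 UMIs, each mouse left out, and no shared barcodes. Other steps were run in scikit-learn 1.9.0, matplotlib 3.10.9, pandas 2.3.3, scipy 1.17.1 and numpy 2.4.6 under Python 3.11.15. With medians of 3546 to 7691 UMIs per cell, the absence of a rare transcript from a cell says little.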

Additional observations from a re-analysis of the deposited data

Results flagged for a closer look

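In 4 of 58 groups of mice 1 value lay far from the others, measured by its gap to the nearest of them over the range of the group, and chance does this in about 1 in 20 groups. Il1r1 in arterial endothelial cells of R182C-TgN3 mice was highest in mouse 4, at 33.9 CPM with the next at 17.2. Tnfrsf1b in arterial endothelial cells of WT-TgN3 mice was highest in mouse 3, at 34.6 CPM with the next at 28.7. Tnfrsf1b in venous endothelial cells of R182C-TgN3 mice was highest in mouse 3, at 32.9 CPM with the next at 25.2. Il18 in venous endothelial cells of WT-TgN3 mice was lowest in mouse 3, at 15.1 CPM with the next at 22.4.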

How the results depend on the processing

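Of 4212 alternative values of 310 results, 4021 kept their direction and their side of the threshold or moved by less than their spread. The count of members called between genotypes kept 0 in 189 of 189 alternatives, and 2621 of 2707 log2 fold changes in contrasts of classes kept direction and side. Among those that did not were 69 log2 fold changes of members between genotypes, which changed sign, and 75 calls lost in contrasts of classes, 20 of members and 55 of 18 list genes (Bcl3 in macrophages minus microglia in 9 alternatives and Casp1 there in 3, Rbck1 in arterial minus capillary cells in 8, Nfkb1 in smooth muscle cells minus pericytes in 1). Values given below are log2 fold changes between genotypes unless named otherwise, and the cause of the changes was not tested.

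With no filter on low counts, microglial Il1r1 gave 0.0126 and Tnf 0.0115, 7 genes were called in macrophages and 17 in pericytes, the interaction of genotype and age called 30 genes in microglia and 1 in endothelial cells, Il1b in macrophages minus microglia gave -0.12, 8 members were called in venous minus capillary cells and 2 in smooth muscle cells minus pericytes. With batch as a covariate, microglial Il1r1 gave 0.0443 and Tnf 0.11, endothelial Tnfrsf1b -0.0412 and Nlrp3 0.17, venous Tnfrsf1b -0.0208 and smooth muscle Tnfrsf1a -0.0491, with 1 gene called in macrophages and 3 in pericytes. With sex as a covariate, microglial Il1r1 gave 0.00716 and Tnf 0.00534. With the replicate block, microglial Il1r1 gave 0.0286, Il1rap -0.00899 and Tnf 0.10, endothelial Tnfrsf1b -0.0446 and Nlrp3 0.12, smooth muscle Tnfrsf1a -0.0306 and the share of microglia with Tnf 0.903 points, with 1 gene called in macrophages and 5 in pericytes. Values of paired mice of the same age and replicate number correlated in microglia (median 0.239, 5 pairs) but little in smooth muscle cells (median 0.0759). The block changed no call of a member.

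With scored doublets kept, endothelial Il1a gave -0.10 and Tnfrsf1b -0.00621, capillary Il1rap -0.0239 and Il1b in macrophages minus microglia -0.00959. With the stricter gate, microglial Il1r1 gave 0.0205, arterial Tnfrsf1b 0.0328 and capillary Il1r1 0.17, and in macrophages minus microglia 2 members were called, with Il1b at -1.35 and Tnf at -0.0790. With DESeq2, 2 members were called in macrophages minus microglia, and the interaction called 1 gene in microglia and 2 in endothelial cells. The difference in share of microglia was -0.140 points for Il1b thinned to 1000 UMIs, and for Tnf 0.854 thinned to 1000 and 2.88 not thinned. Centring within batches gave r = 0.781 for Il1b and -0.419 for Tnf against the stress list, with ranges of 0.352 to 0.836 and -0.746 to -0.314 when each mouse was left out. Without barcodes shared between libraries, an alternative chosen after the data were seen, as were the minimum of 10 macrophages and the stress relations with each mouse left out, no result lost its direction or side.

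Leaving out each mouse in turn gave ranges in microglia of -0.0927 to 0.31 for Il1b, -0.18 to 0.0601 for Il1r1, -0.0270 to 0.10 for Il1rap, -0.0663 to 0.10 for Tnf, -0.0118 to 0.14 for Tnfrsf1a and -0.14 to 0.21 for Nlrp3, and of -0.0438 to 0.70 for Tnf in macrophages. In endothelial cells they were -0.23 to 0.49 for Il1a, -0.0109 to 0.10 for Tnfrsf1a, -0.0393 to 0.0423 for Tnfrsf1b and -0.60 to 0.61 for Nlrp3. In arterial cells they were -0.38 to 0.0381 for Il1r1, -0.00129 to 0.12 for Tnfrsf1a and -0.12 to 0.0223 for Tnfrsf1b, in capillary cells -0.0709 to 0.14 for Il1rap, in venous cells -0.19 to 0.0124 for Il1rap and -0.00784 to 0.28 for Tnfrsf1b, and in smooth muscle cells -0.0470 to 0.0852 for Tnfrsf1a. Genes called ranged from 1 to 2 in pericytes and from 0 to 1 in the interaction in endothelial cells. In macrophages minus microglia 2 to 4 members were called, with Il1b from -0.40 to 0.34. In smooth muscle cells minus pericytes 1 to 2 members were called, with Il1r1 from -0.000376 to 0.19. The difference in share of microglia ranged from -0.332 to 5.20 points for Il1a, -0.0930 to 0.445 for Il1b and -2.15 to 0.903 for Tnf. Genotype in macrophages under the stricter gate was not run, since too few cells remained. Depth limited the rarest genes most: Il1rn, with 78 UMIs in microglia, passed no filter.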
